A study of Mus musculus with 5 samples.

Results

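The subject here is the resting transcriptome of MLE-15 cells, described from the 2 non-silencing control arrays of a series of 5. The MLE-15 line was established from lung tumours of transgenic mice, and the transgene placed SV40 large T antigen under the human SFTPC promoter. That viral oncoprotein binds the retinoblastoma proteins and p53. The other 3 arrays carried an shRNA against Grhl2 and were not used. Each control culture was its own transduction with a lentivirus that carried a GFP reporter and a non-targeting shRNA. Cells met virus at a multiplicity of 50 for 16 h, in 5 µg/ml polybrene, and were then kept in puromycin at 5 µg/ml for 6 days. Both cultures therefore share the viral oncogene, the vector, the reporter and the drug selection, and no untransduced cells or primary lung cells were measured. Labelling began from 300 ng of total RNA on whole-transcript oligonucleotide arrays.

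Members were defined by annotation and not by a signal threshold, though with earlier results of these data known. Of 34760 probe sets, 21640 were paired with exactly 1 gene symbol, and these represented 19937 genes. The brightest probe set stood for each gene. Its level is the log2 signal of the deposited RMA table, given below in the order control 1, control 2. A gene's percentile is the share of the 19937 genes whose mean signal is at or below its own. Probe sets bind their targets with different strength, so a percentile orders signals and not numbers of transcripts. With 1 group of 2 arrays there was no comparison between conditions and no test, and the SD of each pair is the error.

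The lung epithelium holds several cell types that are told apart by their gene expression. Alveolar type II cells make surfactant, the lipid and protein film that keeps alveoli open. Alveolar type I cells form the thin surface for gas exchange. Club and goblet cells secrete protective proteins in the airways, ciliated cells move the mucus, and basal cells renew the airway lining. The homeodomain factor Nkx2-1 is present across the lung epithelium and activates the surfactant genes.

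Of the 6 marker genes, 5 lay in the top 25% of all genes, and the exception was Sftpc. Sftpb (probe set 10539091), which encodes the surfactant protein B needed for surfactant film formation, had 12.11 and 12.09, a mean of 12.10 ± 0.017 (SD, n = 2) and rank 36 of 19937. Cdh1 (10575052), the adhesion protein E-cadherin, had 11.39 and 11.36, at the 99.2nd percentile. Ager (10444407), a receptor abundant in type I cells, had 10.86 and 10.92, at the 98.0th percentile. The gap within these 3 pairs was at most 0.054 on the log2 scale.

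Nkx2-1 (10400474) had 9.99 and 10.01, a mean of 10.00 ± 0.020 at the 93.5th percentile. Epcam (10447383), an epithelial surface protein, had 10.03 and 9.92, at the 93.3rd percentile. Sftpc (10421387), the gene whose human promoter drives the oncogene in these cells, had 7.17 and 6.80. Its mean of 6.98 ± 0.26 lay at the 57.5th percentile, and its gap of 0.37 between cultures exceeded the 0.24 within which 95% of all genes agreed.

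The promoters of 4 of the lung genes at issue show the local sequence beside these levels. They are printed for the secreted proteins Sftpb, Sftpa1 and Bpifa1 and for the type I gene Ager. Sequences are RefSeq's, build GRCm38.p6, plus strand, the 250 bases before each start site, at chr6:72304360-72304609, chr14:41131538-41131787, chr2:154142630-154142879 and chr17:34597600-34597849 in that order. Capitals mark CTCAAG (a core bound by NKX2-1), TGTTTNC (a core bound by FOX factors) or TATAA, each searched on both strands; no matches overlapped.
Sftpb: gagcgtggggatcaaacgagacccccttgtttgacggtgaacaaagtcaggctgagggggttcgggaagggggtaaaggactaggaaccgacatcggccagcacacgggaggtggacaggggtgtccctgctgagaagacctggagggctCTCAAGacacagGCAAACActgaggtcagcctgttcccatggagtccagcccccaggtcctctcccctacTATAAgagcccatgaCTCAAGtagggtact
Sftpa1: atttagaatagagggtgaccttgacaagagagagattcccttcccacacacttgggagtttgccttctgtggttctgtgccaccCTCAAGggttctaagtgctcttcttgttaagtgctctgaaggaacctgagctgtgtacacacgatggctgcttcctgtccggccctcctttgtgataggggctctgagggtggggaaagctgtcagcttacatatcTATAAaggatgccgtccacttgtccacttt
Bpifa1: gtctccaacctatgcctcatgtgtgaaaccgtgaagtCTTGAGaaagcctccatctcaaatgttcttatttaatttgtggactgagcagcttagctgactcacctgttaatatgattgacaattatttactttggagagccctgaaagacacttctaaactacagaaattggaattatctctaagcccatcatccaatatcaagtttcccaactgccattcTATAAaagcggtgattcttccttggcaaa
Ager: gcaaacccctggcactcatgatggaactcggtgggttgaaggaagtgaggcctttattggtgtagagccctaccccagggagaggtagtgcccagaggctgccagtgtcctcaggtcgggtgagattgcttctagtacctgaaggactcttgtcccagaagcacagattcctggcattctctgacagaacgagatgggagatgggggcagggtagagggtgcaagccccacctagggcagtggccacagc

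The Sftpb window held CTCAAG at 100 and 15 bases before the start, a reverse-strand FOX core at 88 and TATAA at 30. The Sftpa1 window held CTCAAG at 166 and TATAA at 30 bases before the start. The Bpifa1 window held a reverse-strand CTCAAG at 213 and TATAA at 29 bases. None of these letters was found in the Ager window, nor AACCNGTT, a core bound by Grainyhead-like factors, in any of the 4. Of all 32851 promoter windows of that length, 13.3% held CTCAAG, 17.8% TGTTTNC, 22.8% TATAA and 1.79% AACCNGTT. These matches describe letters and were not measured as binding.

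Signal of genes with little or no RNA was gauged from 1190 odorant and vomeronasal receptor genes, which are silent in most cells outside the nose. Their median was 2.97, and their 95th percentile was 4.51 on control 1 and 4.53 on control 2. A gene is called above the receptor range where both arrays passed these values. That held for 13719 genes (68.8%), and 11586 (58.1%) passed the 99th percentile of the receptors, 5.26 and 5.20. Ribosomal protein genes lay at the other end, with a median of 11.46 over 54 genes. The brightest receptor, Olfr1174 (10484733), had 7.66 and 7.81. A call just above the range is thus weak evidence of RNA, and levels are given beside calls.

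**Figure D1:**
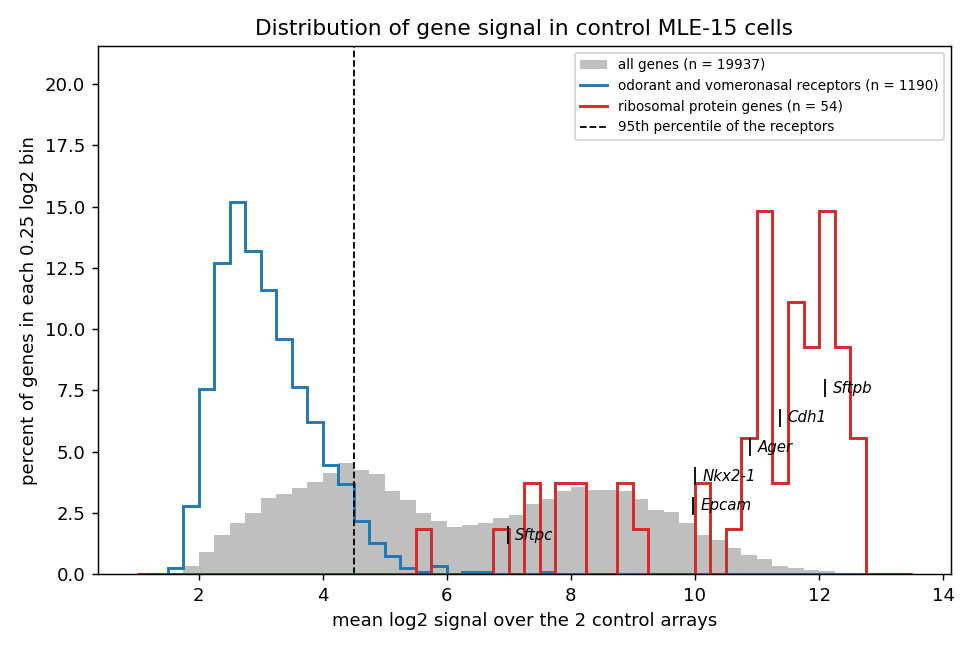
Mean log2 signal over the 2 control arrays (x axis) against the percent of genes in each bin (y axis) for all 19937 genes, 1190 receptor genes and 54 ribosomal protein genes, with the receptors' 95th percentile dashed and the 6 markers ticked at their means (tick height carries no value). All genes form a low and a high hump; 5 markers sit near or beyond the upper edge of the high hump and Sftpc, at 6.98, sits between the humps.

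After RMA, which equalises the distributions of the arrays, the 2 cultures had nearly the same profile. Their correlation across genes was r = 0.999, which is a description, since genes are not independent replicates. The median difference in size was 0.065 on the log2 scale, and it was 0.094 in the dimmest 25% of genes and 0.043 in the brightest 25%. Only 36 genes differed by over 0.5 and 1 by over 1.

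Genes of protein synthesis were frequent among the brightest, and 1 lung secretory gene stood among them. Of the 25 brightest named genes, 9 encode ribosomal proteins, led by Rpl9 with 12.76 and 12.73, and others are the translation factors Eef1a1 (12.83 and 12.82), Eef2 (12.46 and 12.49) and Eif4a1 (12.58 and 12.56). The cytoskeletal gene Actb (12.87 and 12.88) was the brightest named gene. Bpifa1 (10477475), which encodes an antimicrobial and surface-active protein of the nose and large airways, had 12.57 and 12.61 and rank 8 of all genes. Its pair differed by 0.034.

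The rest of this top group serves metabolism, growth and stress. Ldha, lactate dehydrogenase A, had 12.40 and 12.45. Pcna, the sliding clamp of DNA replication, had 12.47 and 12.35. The iron store gene Fth1, the redox protein gene Txn1, the chaperone gene Hspa8 and the mitochondrial genes Slc25a5, Cox6c and ND3 all had means between 12.23 and 12.41. Of the 25 genes, 16 had several probe sets, and for Rpl36 the dimmest of 8 read 6.02 against a mean of 12.47 for the brightest. Ribosomal genes, Eef1a1, Ppia and the histone gene H4c4 have many near-identical copies, so their levels may include signal from those copies and are uncertain. The dimmest probe set had a mean of 9.55 for Slc25a5, 10.68 for Tpt1, 11.11 for Eif4a1 and 11.39 for Hspa8. For Pcna and Cox6c it was 12.12 and 12.07. Levels of the former 4 thus also depend on the probe set.

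Epithelial adhesion genes were bright as a group. Of 43 measured, 38 were above the receptor range (88.4%, against 68.8% of all genes). In the top 25% of genes there were 29, and the list had a median at the 86.2nd percentile (50.0 over all genes). The simple-epithelium keratins Krt18 (12.13 and 12.15), Krt8 (12.07 and 11.98), Krt19 (10.99 and 11.15) and Krt7 (10.58 and 10.52) were the brightest 4 of 52 keratins, and only Krt4, of stratified epithelia, joined them in the top 25%, at 9.33 and 9.38. Of the cadherin-linked catenins, Ctnnb1 had 11.59 and 11.60, Ctnnd1 11.09 and 11.04, and Ctnna1 10.50 and 10.53. Jup, the plaque protein plakoglobin, had 10.78 and 10.80.

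The epithelial protease inhibitors Spint1 and Spint2 had means of 10.73 and 10.45, and Prss8, the membrane protease prostasin, had 10.27 and 10.25. F11r, a junctional adhesion molecule, had 10.23 and 10.20. The epithelial splicing factor Esrp1 had 9.88 and 9.84. Each of these lay above the 92nd percentile.

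Claudins, which set the tightness of the paracellular seal, seldom reached the top 25% of genes. Of 23 claudins, 13 were above the receptor range (56.5%, against 68.8% of all genes) and 1 in the top 25% (4.35%). That 1 was Cldn12 at 8.82 and 8.81, chosen after its value was seen. Cldn8 had 7.62 and 7.53, Cldn4 7.08 and 6.74, and Cldn3 5.90 and 5.88. Cldn18, the claudin of alveolar epithelium, had 4.50 on both arrays, at the edge of the range. Cldn7 had 4.54 and 4.43 and Cldn1 3.56 and 3.70, neither above it on both arrays. The tricellular junction gene Marveld2 (3.74 and 3.67) and the desmosomal cadherin Dsc2 (3.55 and 3.47) were also within the receptor range.

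Lung transcription factors of both proximal and distal epithelium were bright. Of 34, 33 were above the receptor range (97.1%, against 68.8% of all genes). In the top 25% there were 15, and the list had a median at the 70.7th percentile. Id2, an inhibitor of helix-loop-helix factors found in distal lung tips, had 11.60 and 11.74. The pioneer factor Foxa1 had 10.22 and 10.16, and its partner Foxa2 8.52 and 8.63. Sox2, which marks the proximal airway, had 10.13 and 10.15, and Sox9, which marks the distal bud, had 8.97 and 8.93. Both sat in the top 25%, at the 94.4th and 82.6th percentiles.

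The factor Cebpa, which supports type II maturation, had 8.95 and 9.03, and Etv5, an FGF-responsive factor of type II cells, 8.95 and 8.96. Klf5 had 9.97 and 9.95. The forkhead factor Foxp1 had 9.35 and 9.37, and Foxp2 lay at the 83.2nd percentile with a gap of 0.0062. Grhl1 had 8.84 and 8.73, and Grhl3 5.08 and 5.22; Grhl2, chosen after its value was seen, had 7.77 and 7.68, at the 65.6th percentile. Elf5, a distal-tip factor, had 4.70 and 4.75 and Foxa3 4.61 and 4.71, just above the range, and Cebpd (4.02 and 3.92) was the 1 member within it.

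Type II genes ranged from the brightest levels to those of the receptors. Of 28 type II and surfactant genes, 19 were above the receptor range (67.9%, near the 68.8% of all genes) and 9 in the top 25%, with a median at the 61.0th percentile. Of its genes that act on lipids, Scd1, a fatty acid desaturase, had 10.93 and 11.01, Fasn, fatty acid synthase, 10.61 and 10.55, and Lpcat1, which makes surfactant phosphatidylcholine, 10.92 and 10.90. Others were lower in rank. Fabp5, a fatty acid binding protein, had 8.28 and 8.08 by its brighter probe set and a mean of 7.54 by its other. Pcyt1a, which also acts in phosphatidylcholine synthesis, had 7.76 and 7.53, and Acoxl 4.62 and 4.83. Ctsh, a protease that processes surfactant proteins, had 10.29 and 10.26. Abca3, the lipid pump of the lamellar body, had 8.92 and 8.93, at the 82.2nd percentile.

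The surfactant proteins other than Sftpb lay lower. Sftpa1, a collectin, had 8.35 and 8.14 and Sftpd, another collectin, 7.80 and 7.84, both above the range and outside the top 25%. Cxcl15, a lung chemokine, had 8.42 and 8.33. Several genes of mature type II cells were within the receptor range: Lamp3, a lamellar body membrane protein, had 3.24 and 3.28, and Slc34a2, the phosphate transporter, 3.89 and 3.91. Lyz1 had 3.73 and 3.91, Il33 4.13 and 3.77, and Hc 4.03 and 4.20. Lyz2 (4.48 and 4.51) and Cd74 (4.43 and 4.56) were at its edge.

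Nearly all type I genes gave signal. Of 25, 24 were above the receptor range (96.0%, against 68.8% of all genes). In the top 25% there were 11, and the list had a median at the 59.0th percentile. Emp2, a membrane protein of type I cells, had 11.72 and 11.67, Gprc5a, a retinoic acid-induced receptor, 11.45 and 11.54, and the water channel Aqp5 10.31 and 10.36. Cav2 had 10.17 and 10.13, while Cav1, which forms caveolae, had 6.36 on both arrays. Clic5 had 8.91 and 8.99 and Ahnak 9.18 and 9.08. Hopx had 7.07 and 7.19, and Pdpn, the surface protein podoplanin, only 5.47 and 5.54. Igfbp2 (5.28 and 5.31), Akap5 (5.53 and 5.35) and Spock2 (5.29 and 5.24) were as low, and Timp3 (3.72 and 3.67) was within the range.

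**Figure D2:**
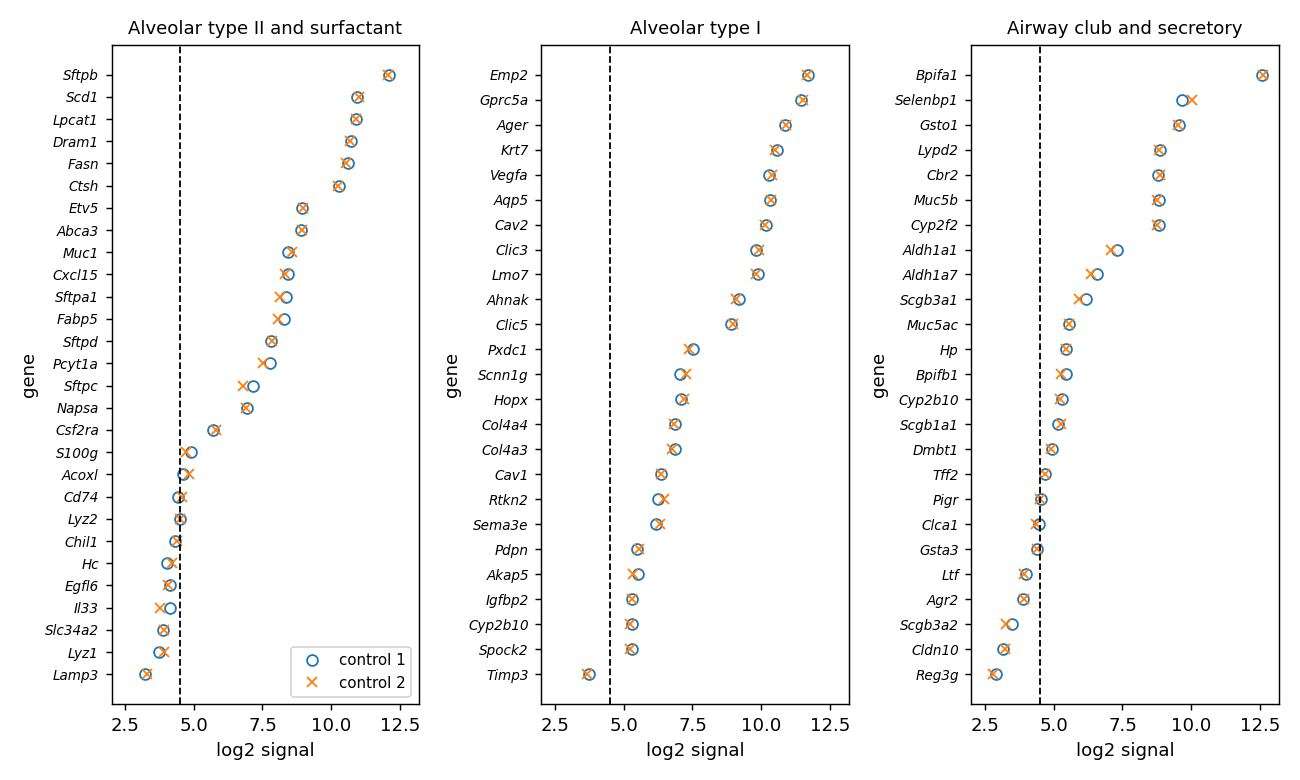
Log2 signal (x axis) on control 1 (circles) and control 2 (crosses) for each measured gene of 3 lung lists, sorted by mean, with the receptors' 95th percentile dashed. Sftpb, Emp2 and Bpifa1 head their lists, and 9 type II, 1 type I and 8 airway secretory genes are not above the dashed level on both arrays.

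Airway secretory genes spread over the whole range of signal. Of 25, 17 were above the receptor range (68.0%) and 7 in the top 25% (28.0%), near the 68.8% and 25% of all genes, and 10 lay between the range and the top 25%, with a median at the 43.0th percentile. Apart from Bpifa1, the bright ones were Selenbp1 (9.67 and 10.05), Gsto1 (9.56 and 9.53), Lypd2 (8.88 and 8.83), the carbonyl reductase Cbr2 (8.79 and 8.88), the mucin Muc5b (8.83 and 8.77) and the club cell cytochrome Cyp2f2 (8.81 and 8.77). The club cell secretoglobins were not among them. Scgb1a1, the defining club cell protein, had 5.16 and 5.28 at the 41.2nd percentile, Scgb3a1 6.18 and 5.91, and Scgb3a2 3.47 and 3.25. The goblet cell genes Agr2 (3.89 and 3.90) and Clca1 (4.45 and 4.37) were within the range, and Muc5ac had 5.56 and 5.54. Of 14 BPI fold genes, Bpifa1 alone was in the top 25%; its relative Bpifb1 had 5.44 and 5.27.

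By the main limit, ciliated and rare airway cell genes were called less often than the 68.8% of all genes. With vomeronasal receptors alone as the reference they were not, at 21 of 25 and 18 of 21. Of 25 ciliated cell genes, 13 were above the receptor range, 7 above the 99th percentile of the receptors and 2 in the top 25%, Tuba1a (8.66 and 8.68) and Tppp3 (8.44 and 8.42), tubulin-related genes. Foxj1, the master factor of motile cilia, had 4.51 and 4.58, and the dynein genes Dnah5 (4.16 and 4.04), Dnah9 (4.40 and 4.48) and Dnah11 (4.30 and 4.17) were within the range. Mcidas, which starts multiciliation, had 6.60 and 6.56, and the cilia factors Rfx2 and Rfx3 had 7.24 and 7.18, and 6.96 and 7.03. None of 21 neuroendocrine, tuft and ionocyte genes was in the top 25%, and 8 were above the range (4 at its 99th percentile, 18 with vomeronasal receptors alone as the reference), led by Ascl3 (6.13 and 6.04) and Chga (5.54 on both). Cftr, the chloride channel of ionocytes, had 3.35 and 3.26.

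All 16 basal cell genes were above the receptor range, against 68.8% of all genes. Of the 16, 12 were also above its 99th percentile, against 58.1% of all genes. In the top 25% there were 6, and the list had a median at the 54.2nd percentile. Several defining ones were only slightly above. Trp63, the basal cell master factor, had 5.36 and 5.22, Krt5 5.15 and 5.09, Krt14 4.99 and 5.17, and Krt15 4.68 and 4.78. Those in the top 25% were Itga6 (10.40 and 10.30) and Itgb4 (8.84 and 8.82), which pair as a laminin receptor, Lamb3 (10.35 and 10.30), a laminin chain, and Bcam, Perp and Dapl1, with means of 10.06, 9.96 and 8.41. Ngfr, the low-affinity neurotrophin receptor, had 7.84 and 7.83.

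Mesenchymal genes held 4 bright members. Of 36, 28 were above the receptor range (77.8%, against 68.8% of all genes). Only 16 of the 36 passed the receptors' 99th percentile, which 58.1% of all genes passed. In the top 25% there were 4 (11.1%), and the list had a median at the 40.4th percentile. The 4 were Vim, the intermediate filament vimentin (11.11 and 11.33), Fn1, fibronectin (a mean of 11.02 ± 0.024), Sparc, a matrix protein (10.79 and 10.83), and Msln, the mesothelial surface protein (10.00 and 10.07). Cdh2, N-cadherin, had 6.06 and 5.80, at the 48.8th percentile. The fibrillar collagens Col1a1 (6.20 and 6.08), Col1a2 (5.87 and 5.93) and Col3a1 (5.63 and 5.67) lay near the middle of all genes.

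The transition factors Zeb2 (6.18 and 6.16) and Snai1 (5.67 and 5.99) were above the range, and Snai2 (4.24 and 4.08) was within it. Dcn, the matrix proteoglycan decorin, had 7.36 and 7.25, the highest after the 4. Others were within the range: Tbx5 had 3.57 on both arrays, Fgf10, the ligand that lung mesenchyme sends to epithelium, 3.49 and 3.56, and Lum, the matrix proteoglycan lumican, 2.14 and 2.13. Pdgfrb had 4.72 and 4.68. Vim, at rank 210, and Cdh1, at rank 166 of 19937, were thus both bright.

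Immune genes were mostly not above the receptor range, though their median of 4.26 was higher than the receptors' 2.97. With vomeronasal receptors alone as the reference, most of them were called above it. Of 24 immune genes, 8 were above the range (33.3%, against 68.8% of all genes), 2 above the 99th percentile and none in the top 25%. Ptprc, the pan-leukocyte phosphatase CD45, had 4.11 and 4.30, Itgam 3.86 and 3.92, and Cd79a, of B cells, 3.09 and 3.01. Their highest was Cd68, a lysosomal protein, with 6.12 and 6.23. Of 17 endothelial genes, 11 were above the range (64.7%, near the 68.8% of all genes), 4 above the 99th percentile and none in the top 25%. Pecam1 had 4.50 and 4.23 and Kdr, the main VEGF receptor, 3.91 and 4.08, while Egfl7 had 7.84 on both, Flt1 7.54 and 7.53, Vwf 6.88 and 6.85, and Tek 6.63 and 6.45.

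**Figure D3:**
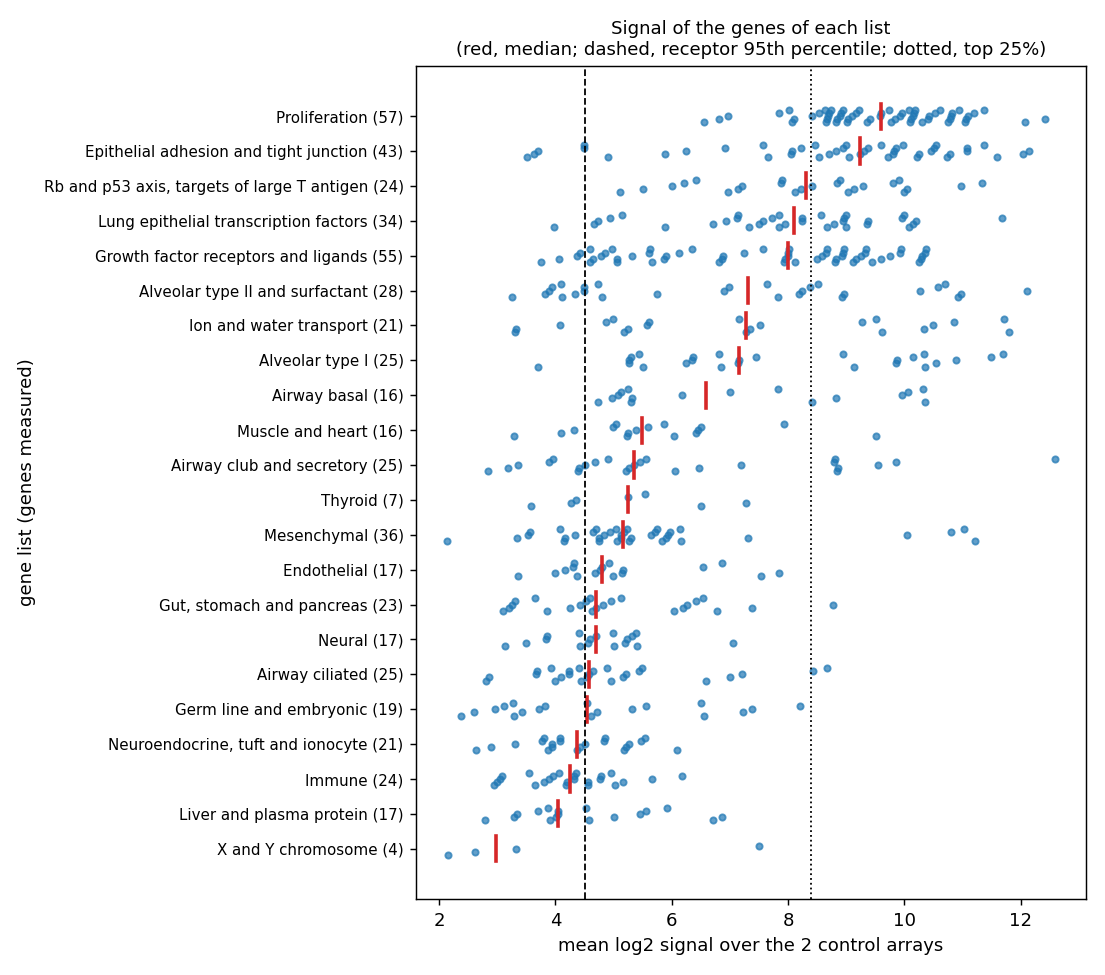
Mean log2 signal over the 2 control arrays (x axis) of every measured gene (points, spread vertically to be seen) in each of the 22 gene lists (y axis, number of genes in brackets), with list medians in red, the receptors' 95th percentile dashed and the start of the top 25% of genes, 8.40, dotted. Proliferation and epithelial adhesion lists have medians of 9.59 and 9.24, and the immune and liver lists have medians of 4.26 and 4.04, below the dashed line.

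Proliferation genes had the highest median of the 22 lists. All 57 measured were above the receptor range, also at its 99th percentile, against 68.8% and 58.1% of all genes. In the top 25% there were 50, and the list had a median at the 89.9th percentile. The replication genes Pcna, Rrm1 (11.37 on both), Mcm2 (11.21 and 11.19), Mcm7 (11.11 and 11.09) and Rfc4 (11.02 and 11.05) led, with Cdk4 (12.05 and 12.08), the G1 kinase. Of mitotic genes, Mad2l1 had 11.05 and 11.07, Cdk1 10.79 and 10.81, Aurkb 10.75 on both, and Mki67, the antigen Ki-67, 10.78 and 10.79. Top2a had 10.92 and 10.94 by its brighter probe set and a mean of 3.57 by its other. The lowest were Gmnn (6.53 and 6.58), E2f2 (6.81 and 6.80) and Cdk6 (6.99 and 6.96).

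Of 27 listed genes around Rb and p53, which large T antigen binds, 24 were measured. Trp53, the gene of p53 itself, Cdkn1a and Bax had no probe set paired with exactly 1 gene symbol and were left out. All 24 were above the receptor range, against 68.8% of all genes. Of the 24, 12 were in the top 25%, with a median at the 73.8th percentile. Of the Rb family, Rb1 had a mean of 9.03 ± 0.039, Rbl1 had 10.04 and 10.03, and Rbl2 had 8.21 and 8.22. The CDK inhibitor gene Cdkn2a had 9.14 on both arrays, Cdkn2c 9.90 on both and Cdkn2b 8.41 and 8.42, all in the top 25%. Cdkn2d (7.07 and 7.20) and Cdkn1c (6.18 and 6.23) were outside it. Cdkn1b, the inhibitor p27, had a mean of 10.97 ± 0.033 by its brighter probe set and 7.92 by its other. Of genes that p53 activates, Ccng1 had 11.34 and 11.33, Mdm2 9.24 and 9.33, Sesn1 8.90 on both and Phlda3 8.79 and 8.88. Sesn2 (8.13 and 8.12), Gadd45a (7.88 and 7.87) and Zmat3 (6.90 and 7.03) were outside the top 25%. The death genes Bbc3 (6.38 and 6.44), Fas (5.58 and 5.43) and Pmaip1 (5.22 and 5.01) were lower in rank, between the 39.8th and 52.5th percentiles.

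Growth factor receptors were broadly present with a few gaps. Of 55 receptors and ligands, 51 were above the receptor range (92.7%, against 68.8% of all genes). In the top 25% there were 24, and the list had a median at the 69.3rd percentile. Of the ErbB receptors, Erbb3 had 10.28 and 10.22 and Erbb2 9.58 and 9.60, whereas Egfr (4.33 and 4.41) and Erbb4 (3.87 and 3.65) were within the range. The bone morphogenetic protein receptors Bmpr2 and Bmpr1a had means of 10.37 and 9.94, and their ligand Bmp4 had 10.24 and 10.35. Smo, the Hedgehog signal transducer, had 10.33 and 10.23, and the ErbB ligand Ereg 9.71 and 9.80. Fgfr4 (5.04 and 4.91) was low, Fgfr2, the receptor of distal lung epithelium and chosen after its value was seen, had a mean of 7.99 ± 0.0025, and the mesenchymal ligands Fgf7 (4.22 and 3.89) and Igf1 (4.39 and 4.44) were within the range.

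Fluid transport genes were uneven within channels and pumps. Of 21, 18 were above the receptor range (85.7%, against 68.8% of all genes). In the top 25% there were 8, and the list had a median at the 60.2nd percentile. Atp1b1, a sodium pump subunit, had 11.80 and 11.79, Slc12a2, the sodium-potassium-chloride cotransporter, 11.73 and 11.70, and the calcium-activated chloride channel Ano1 10.86 and 10.84. The epithelial sodium channel has 3 subunits: Scnn1a had 9.16 and 9.37, Scnn1g 7.04 and 7.25, and Scnn1b 4.09 and 4.06, within the receptor range. Among 11 aquaporins only Aqp5 was in the top 25%.

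Matrix receptors and basement membrane chains were described as families chosen after their values were seen. Of 28 integrins, 20 were above the receptor range (71.4%) and 7 in the top 25%, shares near those of all genes (68.8% and 25%). The 7 were Itgb5, Itga6, Itgb1, Itgav, Itga2, Itga3 and Itgb4. Itgb1 had 10.25 and 10.26 and Itgav 10.21 and 10.19. Of 10 laminins, 8 were above the receptor range (80.0%) and 5 in the top 25%. Among the 5 were Lama5 (9.61 and 9.65) and Lamc1 (9.90 and 9.75), while Lama3 had 4.59 and 4.61. All 6 type IV collagens were above the range, with none in the top 25%.

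Positional and ligand families, also chosen afterwards, varied. Of 37 Hox genes, which encode position along the body axis, 16 were above the receptor range (43.2%, against 68.8% of all genes) and none in the top 25%. The highest were Hoxa9 (7.70 and 7.57), Hoxa13 (7.53 on both), Hoxa7 (7.20 and 7.14), Hoxa6 (6.91 and 6.90) and Hoxa4 (6.43 on both), all of cluster A. Hoxa5, a gene of lung development, had 6.15 and 6.25. Of 22 Fgf ligands, 17 were above the range (77.3%), and Fgf1 (8.65 and 8.70) and Fgf18 (8.37 and 8.46) were in the top 25%. Of 19 Wnt ligands, 16 were above the range (84.2%) and none in the top 25%. At the receptors' 99th percentile, 8 of the 22 Fgf and 9 of the 19 Wnt ligands passed, shares below the 58.1% of all genes. Of 13 Cxcl chemokines, 5 were above the range (38.5%), led by Cxcl15, Cxcl17 (8.29 and 8.24) and Cxcl16 (8.06 and 8.02).

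Genes of other organs seldom reached the top 25%. Counts above the receptor range were 4 of 7 for thyroid, 7 of 17 for liver, 13 of 23 for gut, stomach and pancreas, 9 of 17 for neural, 13 of 16 for muscle and heart and 10 of 19 for germ line and embryonic genes, against 68.8% of all genes. In the top 25% there were 0, 0, 1, 0, 1 and 0 of these. The muscle and heart share was above that of all genes only at this limit. At the receptors' 99th percentile 9 of 16 passed, against 58.1% of all genes. With vomeronasal receptors alone as the reference, the neural share was not below that of all genes, and the liver count also rose. Thyroglobulin, Tg, had 4.34 and 4.20, although the thyroid also uses Nkx2-1, and albumin, Alb, had 3.21 and 3.46. Those in the top 25% were Gkn2, a gastrokine of the stomach lining, at 8.73 and 8.83, and Myh7, the slow myosin heavy chain, at 9.51 and 9.52.

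Below the top 25%, some regulators of other organs still lay well clear of the receptors. Cdx2, the intestinal master factor, had 7.37 and 7.38, and Tff1, a stomach trefoil peptide, 6.79 and 6.77. Tnnt2, cardiac troponin T, had 7.94 and 7.92. The growth-associated chromatin gene Hmga2 had 8.10 and 8.30, and Igf2bp1, an RNA-binding protein of fetal tissue, 7.35 and 7.41 by the brighter of 2 probe sets, the other having a mean of 3.84. The pluripotency genes Nanog (7.22 and 7.23) and Pou5f1 (6.48 and 6.53) have several processed copies in the genome, so their signal is uncertain. Fgb, fibrinogen beta, had 6.95 and 6.46, while its partners Fga and Fgg had means of 3.87 and 3.29.

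Xist, the RNA that coats the inactive X chromosome, had 7.70 and 7.28, above the receptor range. The Y-linked genes Kdm5d (3.28 and 3.38), Uty (2.58 and 2.65) and Eif2s3y (2.16 and 2.15) were within it.

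Several of the largest gaps between the 2 cultures were in genes that low oxygen is known to induce. Among the 10 named genes that differed most, 6 were higher in control 2, and they include Ankrd37 (7.11 and 8.05), the mitochondrial protein gene Bnip3 (10.10 and 10.80) and the glucose transporter gene Slc2a1 (9.56 and 10.25). Bex4, which had the largest gap (3.60 and 2.49), was within the receptor range on both arrays. Smtnl2 had 6.01 and 6.86, and the other 5 had a mean level below 5.

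A list of 49 hypoxia-induced and glycolytic genes was then drawn up after these values were seen, so it describes and supports nothing. Of its 46 measured genes, 40 were higher in control 2 (45.0% of all genes were), with a median difference of 0.18 against −0.012. In 14 of the 46 the excess passed 0.25, against 1.72% of all genes. They include the histone demethylase gene Kdm3a (9.09 and 9.68), the kinase gene Pdk1 (8.72 and 9.24), the hydroxylase genes P4ha1 (9.47 and 9.91) and Egln3 (6.65 and 7.06), and Stc1 (6.23 and 6.64). Vegfa (10.28 and 10.41) and Ldha, which belong to the same response, differed by 0.13 and 0.048.

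**Figure D4:**
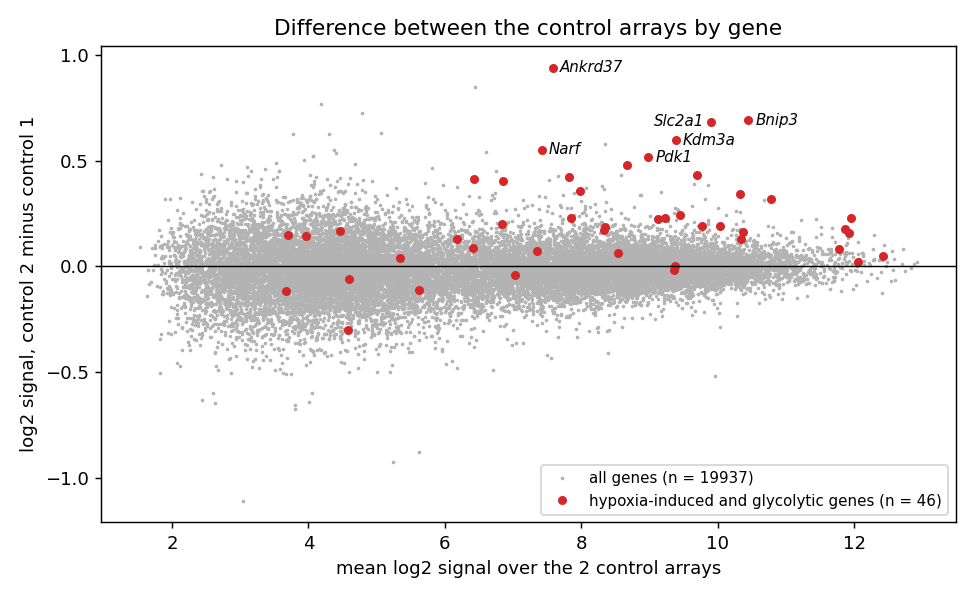
Difference in log2 signal, control 2 minus control 1 (y axis), against mean log2 signal (x axis) for all 19937 genes (grey) and 46 hypoxia-induced and glycolytic genes chosen after their values were seen (red); red points over 0.5 are named. Most red points lie above 0, and Ankrd37 is highest at 0.94.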

How the data were processed

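RNA of the 2 control cultures was analysed from 1 deposited table of log2 values. Per the submitters' processing notes, the authors ran RMA within Expression Console (Affymetrix), a method that subtracts background, equalises the distributions of the arrays and combines probes into 1 value per probe set. Software versions are not stated in the sources used, and the log base was taken from the method and the range of values. Of the table's probe sets, 1321 carried several symbols and 11799 none listed, and these were not named. Entrez IDs matched RefSeq (GRCm38.p6) for 19855 genes and did not for 82. Of 572 listed genes, 545 had a probe set paired with exactly 1 gene symbol and count as measured. The others are not analysed here.

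Python 3.11.15, numpy 2.4.6 and pandas 2.3.3 were used. Functions were tested on simulated data. Members, lists and the rule for named genes were chosen with earlier results of these data known. The rule names the 6 markers, the 25 brightest genes, the 10 that differ most between arrays, and in each list the 15 highest and 10 lowest or, for lists of up to 20, all. Predicted genes, RIKEN clones, reference receptors and small RNAs stayed out of the ranking. Separate transductions of 1 line are the replicates, and the number of arrays limits the precision. Alternatives covered the reference, its percentile, the probe set, the ranked genes and each array.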

Additional observations from a re-analysis of the deposited data

How the results depend on the processing

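The count of genes above the receptor range, 13719, ran from 11586 to 16506 over 10 alternatives, and was 13855 and 13979 without control replicates 1 and 2. Of 230 values for this count and the 22 lists, 218 stayed within 1.5 times the main one. With the 99th percentile as the limit, 58.1% of all genes were called. Counts then fell to 7 (ciliated), 4 (neuroendocrine, tuft and ionocyte), 16 (mesenchymal), 4 (endothelial), 2 (immune), 8 (gut, stomach and pancreas) and 4 (neural). With vomeronasal receptors alone, they were 21 of 25 (ciliated), 18 of 21 (neuroendocrine, tuft and ionocyte), 18 of 24 (immune), 14 of 17 (liver) and 15 of 17 (neural). No alternative called more than 16506 of all 19937 genes. Calls in these lists therefore depend on the limit. With vomeronasal receptors alone, ciliated, rare airway cell and neural genes were not called less often than all genes. Genes differing by over 0.5 numbered 14 among those above the range. With the dimmest probe set per gene, 16 of 578 gene percentiles moved by over 5 points, the most for Top2a, by 82.7. Ranking without predicted genes, receptors and small RNAs lowered 317 of 578 percentiles by over 5 points, with a median move of 5.73 over the 578. No paired analysis was possible because only the control group was used and no test was made. Signal near the receptor range limits what can be said of dim genes.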
